A study of Mus musculus with 9 samples.

Results

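The circadian clock genes described here are Arntl (also called Bmal1), Clock, Per1, Per2, Per3, Cry1, Cry2, Nr1d1, Nr1d2 and Dbp, 10 genes taken by their symbol. Every array probe annotated to one of these symbols was taken, which gave 19 of the 34885 probes that carry a single gene symbol. A probe passed the filter when its detection p-value was under 0.05 on at least 3 of the 9 arrays, and 13 of the 19 did so. They stand for 9 of the 10408 genes tested. Cry1 was not tested, since its probe was not detected on any array (raw signal 66.0 to 114, lowest detection p-value 0.443).

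The RNA came from livers of male C57BL/6 mice aged 8 weeks and was hybridised to Illumina bead arrays, 3 per group. The euthyroid group served as control, the T3 group received the thyroid hormone triiodothyronine for 3 days, and the last group received T3 for 3 days together with FoxO1 siRNA, a short RNA that lowers the FoxO1 transcript, given by hydrodynamic tail vein injection. FoxO1 is a forkhead transcription factor that insulin signalling holds outside the nucleus, and hydrodynamic injection drives a large volume of fluid into the liver within seconds. The labels name no group injected with a control siRNA, give no hour of collection, and leave unsaid if the arrays of a group come from different mice. The p-values therefore rest on a spread between arrays that may be technical.

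The mammalian clock is a feedback loop of transcription. ARNTL and CLOCK form a dimer that binds E-box sequences and activates the Per and Cry genes, whose protein products return to the nucleus and inhibit the dimer. NR1D1 and NR1D2 (REV-ERB alpha and beta), also made under ARNTL and CLOCK, repress Arntl at elements that the ROR receptors use to activate it, and DBP is an output activator that binds D-boxes. In liver most of these transcripts rise and fall steeply within each day, so their level in a sample depends on the hour at which it was taken.

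The proximal promoters were examined for the elements through which the loop works, because each arm of the loop acts through one of them. RefSeq promoter windows of GRCm38.p6, each 300 bases long with 250 bases before and 50 after the transcription start, were matched to 9 of the 10 members and gave 13 windows, as some genes have several starts; none was matched for Per2. Both strands were searched. The E-box CACGTG occurs in 7.15% of all 32851 windows and in those of Per1 and Cry1. The variant CACGTT, which reads AACGTG on the other strand, occurs in 4.68% and in windows of Cry1, Cry2 and Nr1d1. The D-box TTANGTAA occurs in 2.32% and is present in Per3, and the ROR core, written as TAGGTCA or TGGGTCA, occurs in 6.45% and is present at base 31 after one start of Arntl. The forkhead core GTAAACA occurs in 3.65% of windows and in that of Cry1. Neither the thyroid hormone element DR4, a direct repeat of AGGTCA with 4 bases between (0.0152% of windows), nor the glucocorticoid element, AGAACA and TGTTCT with 3 bases between (0.00913%), matched any member window, which says only that these letters are not in these stretches. The longer stretches shown are those of the 3 members that fell in an siRNA comparison and have a match, and the shorter ones are those of Per3 and Cry1, where several elements lie close together; capitals mark the matches.

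Per1, chr11:69098699-69098948, plus strand, E-box from base -166 relative to the start: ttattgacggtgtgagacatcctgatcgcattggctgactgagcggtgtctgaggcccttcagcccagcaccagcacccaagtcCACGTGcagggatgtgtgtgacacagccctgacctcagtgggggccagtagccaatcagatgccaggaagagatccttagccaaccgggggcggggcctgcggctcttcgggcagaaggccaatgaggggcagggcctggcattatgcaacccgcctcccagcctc

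Cry2, chr2:92434070-92434319, minus strand, E-box variant from base -166: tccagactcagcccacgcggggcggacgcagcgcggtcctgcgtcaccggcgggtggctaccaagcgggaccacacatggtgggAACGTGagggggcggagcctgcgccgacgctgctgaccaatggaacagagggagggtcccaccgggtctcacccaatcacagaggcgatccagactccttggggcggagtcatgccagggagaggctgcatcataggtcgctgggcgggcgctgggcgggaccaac

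Nr1d1, chr11:98775378-98775627, minus strand, E-box variant from base -28: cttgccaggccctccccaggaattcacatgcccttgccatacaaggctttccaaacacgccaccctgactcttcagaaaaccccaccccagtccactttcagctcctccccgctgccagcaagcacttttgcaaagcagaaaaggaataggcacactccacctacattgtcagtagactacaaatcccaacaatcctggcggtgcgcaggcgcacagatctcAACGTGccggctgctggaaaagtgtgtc

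Per3, chr4:151044806-151044875, minus strand, D-boxes from bases -205 and -158: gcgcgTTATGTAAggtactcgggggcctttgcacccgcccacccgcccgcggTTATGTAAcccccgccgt

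Cry1, chr10:85185095-85185164, minus strand, forkhead core, E-box variant and E-box in that order: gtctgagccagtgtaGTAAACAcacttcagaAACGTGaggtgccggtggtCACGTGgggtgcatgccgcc

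A match of this kind is a description of the letters and not a bound site. All levels below are log2 signals after background correction and quantile normalisation, on a scale that starts near 4 because an offset of 16 was added, and all changes are differences of mean log2 level ± the standard error of one limma model over all 9 arrays (n = 3 per group). Fold changes derived from them understate the change of dim probes. Adjusted p-values are limma's, two-sided, after Benjamini-Hochberg adjustment over the 10408 genes, with 0.05 as threshold. The T3 arrays enter both the comparison with euthyroid liver and the comparison with the siRNA group, so the changes in these are given side by side and not as separate evidence. In RNA from whole liver, fewer cells of a type and less RNA per cell cannot be told apart.

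The treatment labels were checked on Foxo1 and on Dio1, the type 1 deiodinase gene that thyroid hormone induces. The Foxo1 level was 8.76 ± 0.08 (SD, n = 3) in euthyroid, 9.53 ± 0.29 in T3 and 8.46 ± 0.06 in siRNA livers. It was lower by 1.07 ± 0.14 in the siRNA group than in the T3 group (log2 change -1.07, adjusted p = 0.00166), whereas its difference from the euthyroid group was -0.30 ± 0.14 (adjusted p = 0.15). With the mean of its probes in place of the brightest one, the latter difference was -0.50 and passed the threshold (adjusted p = 0.017). With T3 against euthyroid liver Foxo1 rose by 0.77 (adjusted p = 0.00805), and with median scaling this value was 0.72 and did not pass (adjusted p = 0.0513). Dio1 was 1.92 ± 0.15 higher with T3 (adjusted p = 0.000595). The arrays had median raw signals of 109 to 127 and detected 36.4% to 40.5% of the probes.

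Across the 9 tested clock genes, T3 was followed by a higher level of Clock, and T3 with FoxO1 siRNA by lower levels of Per1 and Cry2 than T3 alone and of Per1 and Nr1d1 than in euthyroid liver. Against euthyroid liver, T3 gave 1 call among the 9 genes (1 higher), beside 18.4% of all genes tested (7.81% higher and 10.6% lower). The siRNA group against T3 gave 2 calls (2 lower), beside 19.6% of all genes (11.8% higher and 7.77% lower), and against euthyroid liver 2 calls (2 lower), beside 26.8% (13.5% higher and 13.3% lower). These shares of 11.1%, 22.2% and 22.2% of the clock genes lie near those of all genes. The median log2 change of the 9 genes was 0.19, -0.25 and -0.09 in the 3 comparisons, and that of all genes was -0.05, 0.01 and -0.02. The levels of the groups did not overlap for 2, 2 and 4 of the 9 genes, beside 40.7%, 38.4% and 46.1% of all genes. Where the arrays were scaled to a common median in place of quantile normalisation, the median change of all genes moved by 0.16 in the siRNA comparison with T3 and by 0.11 in that with euthyroid liver, and the share of called genes that were higher went from 60.2% to 88.7% and from 50.3% to 73.6%.

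**Figure D1:**
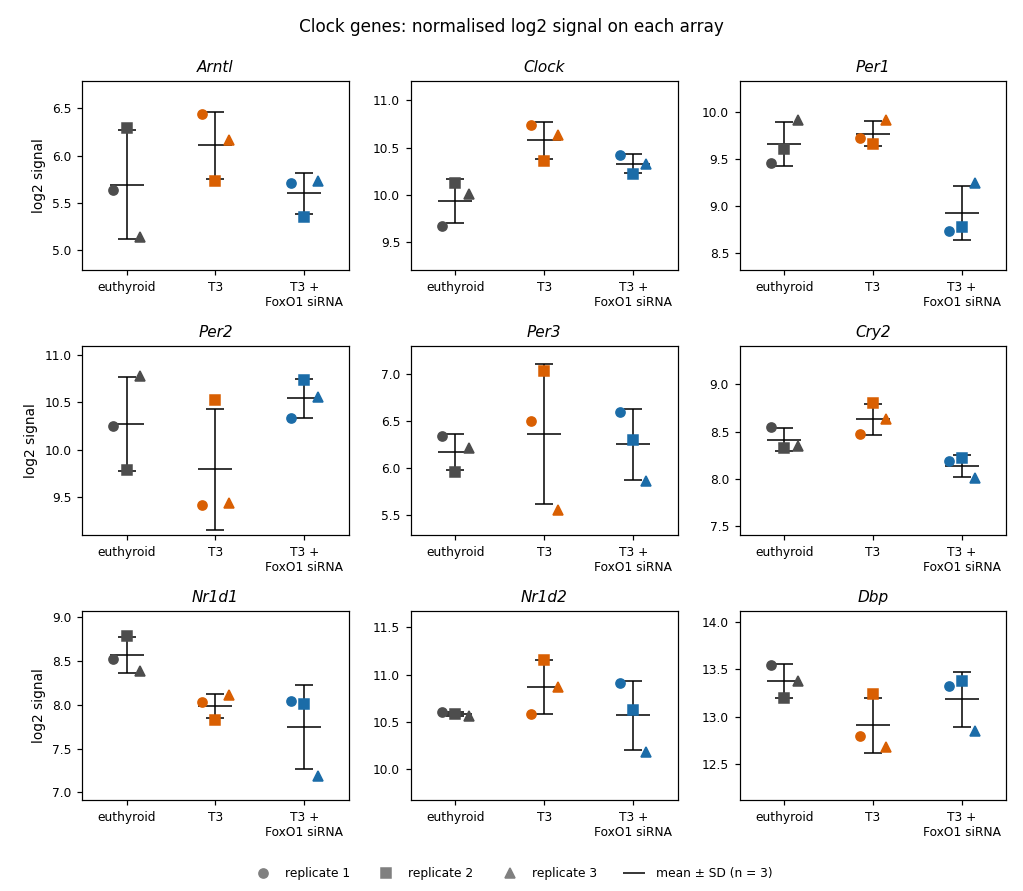
Normalised log2 signal (vertical axis) of the 9 tested clock genes in euthyroid, T3 and T3 plus FoxO1 siRNA livers; each point is 1 array, its shape gives the replicate number, and the bars show the mean ± SD of 3 arrays. The vertical axes differ between genes in centre and range. Per1 lies between 8.74 and 9.25 in the siRNA group and at 9.46 or more on the other arrays, while the T3 arrays of Per2 spread from 9.41 to 10.53.

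Clock and Arntl form the activating arm. Clock, whose protein binds DNA together with ARNTL, had levels of 9.67, 10.12 and 10.01 on the euthyroid arrays, 10.74, 10.36 and 10.63 on the T3 arrays and 10.42, 10.22 and 10.33 on the siRNA arrays. All 3 T3 arrays and all 3 siRNA arrays lay above the highest euthyroid array, and the siRNA levels overlapped those of T3 alone. Clock rose by 0.64 ± 0.15 with T3 (95% interval 0.31 to 0.98, 1.56-fold, adjusted p = 0.0181). The siRNA group differed from T3 by -0.25 ± 0.15 (adjusted p = 0.26) and from euthyroid liver by 0.39 ± 0.15 (adjusted p = 0.0776), which passed without background correction (0.36, adjusted p = 0.0398) and with the authors' deposited normalized values (0.36, adjusted p = 0.0429). The T3 call was lost without euthyroid replicate 1 (0.51, adjusted p = 0.0619), without T3 replicate 1 (0.56, adjusted p = 0.0515) and without T3 replicate 3 (0.62, adjusted p = 0.0544). The other Clock probes were detected on 1 array and on 0 arrays and could not be tested.

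Arntl, the partner of Clock, was dim, being detected on 2, 3 and 2 arrays of the euthyroid, T3 and siRNA groups. Its levels were 5.64, 6.29 and 5.14 in euthyroid liver, 6.44, 5.73 and 6.17 with T3 and 5.71, 5.35 and 5.73 with siRNA. The groups overlapped in every comparison. The changes were 0.42 ± 0.28 with T3 (95% interval -0.22 to 1.05, adjusted p = 0.326), -0.51 ± 0.28 for siRNA against T3 (adjusted p = 0.229) and -0.09 ± 0.28 for siRNA against euthyroid liver (adjusted p = 0.841), so that a difference of 1 on the log2 scale after T3 lies within the interval.

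Among the repressors, Per1 fell in the siRNA group on both of its detected probes. Per1, the period gene that is also induced directly by glucocorticoids and cyclic AMP, had levels of 9.46, 9.61 and 9.91 in euthyroid liver, 9.72, 9.66 and 9.91 with T3 and 8.74, 8.78 and 9.25 with siRNA. The highest siRNA array lay below the lowest array of both other groups, which overlapped each other. The level was lower by 0.84 ± 0.17 than with T3 alone (log2 change -0.84, 95% interval -1.22 to -0.46, 1.79-fold, adjusted p = 0.0101) and lower by 0.73 ± 0.17 than in euthyroid liver (log2 change -0.73, 1.66-fold, adjusted p = 0.0131). The change with T3 alone was 0.10 ± 0.17 (adjusted p = 0.704). A second Per1 probe gave 8.04, 8.38 and 8.42, then 8.03, 8.19 and 8.25, then 7.07, 7.51 and 7.81 in the same order of groups. Its siRNA arrays again lay below all others, with changes of -0.69 ± 0.19 against T3 and -0.82 ± 0.19 against euthyroid liver (adjusted p = 0.0355 and 0.0139, limma over 15754 named probes, of which 16.2% and 24.7% were called). The third Per1 probe was not detected. The fall against T3 was called under each of the 19 alternatives that tested it (adjusted p from 0.00211 to 0.0434), while that against euthyroid liver was not called with median scaling (-0.59, adjusted p = 0.058).

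Per2, the period gene whose protein binds nuclear receptors as well as the cryptochromes, had levels of 10.25, 9.78 and 10.78 in euthyroid liver, 9.41, 10.53 and 9.43 with T3 and 10.33, 10.74 and 10.56 with siRNA. T3 replicate 2 stood more than 1 unit above the other T3 arrays, and all groups overlapped. The changes were -0.48 ± 0.33 with T3 (adjusted p = 0.333), 0.75 ± 0.33 for siRNA against T3 (95% interval 0.01 to 1.49, adjusted p = 0.135) and 0.27 ± 0.33 for siRNA against euthyroid liver (adjusted p = 0.58). Without T3 replicate 2 the siRNA group was 1.12 above T3 and this passed the threshold (adjusted p = 0.0274). The second Per2 probe showed the same array apart, with T3 levels of 8.96, 10.16 and 8.94, and gave changes of -0.36, 0.59 and 0.23. The third was not detected.

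Per3, the period gene that is dispensable for rhythm in mice, had levels of 6.34, 5.96 and 6.21 in euthyroid liver, 6.50, 7.03 and 5.55 with T3 and 6.59, 6.30 and 5.86 with siRNA, and was detected on 8 arrays. The T3 arrays spanned the range of both other groups. Its changes of 0.19 ± 0.33, -0.11 ± 0.33 and 0.08 ± 0.33 did not pass (adjusted p = 0.728, 0.846 and 0.881), and each of the 3 changed sign under at least 1 alternative. A second Per3 probe, detected on 5 arrays, gave 0.01, 0.19 and 0.20.

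Cry2 also fell in the siRNA group relative to T3. Cry2, a cryptochrome that inhibits the ARNTL and CLOCK dimer, had levels of 8.55, 8.33 and 8.35 in euthyroid liver, 8.47, 8.80 and 8.63 with T3 and 8.19, 8.22 and 8.01 with siRNA. The siRNA arrays lay below all 6 others. The change against T3 was -0.49 ± 0.12 (95% interval -0.76 to -0.22, 1.41-fold, adjusted p = 0.0214), that against euthyroid liver -0.27 ± 0.12 (adjusted p = 0.122) and that of T3 alone 0.22 ± 0.12 (adjusted p = 0.23). The call was lost with median scaling (-0.25, adjusted p = 0.437; -0.42 relative to the median of all genes there) and without T3 replicate 2 (adjusted p = 0.0583), T3 replicate 3 (adjusted p = 0.0571) or siRNA replicate 3 (adjusted p = 0.073). The second Cry2 probe was not detected, and Cry1, the other cryptochrome, could not be tested.

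Of the nuclear receptors that repress Arntl, Nr1d1 was called in 1 comparison and Nr1d2 in 0; the difference between the genes was not tested. Nr1d1 had levels of 8.53, 8.79 and 8.39 in euthyroid liver, 8.03, 7.83 and 8.11 with T3 and 8.04, 8.01 and 7.19 with siRNA. Every euthyroid array lay above every other array, and the T3 and siRNA groups overlapped. Nr1d1 fell by 0.82 ± 0.22 from euthyroid liver to the siRNA group (log2 change -0.82, 95% interval -1.32 to -0.32, 1.77-fold, adjusted p = 0.0245). The change with T3 alone was -0.58 ± 0.22 (95% interval -1.08 to -0.08, adjusted p = 0.0952), and it passed the threshold under 4 of 19 alternatives. The siRNA group differed from T3 by -0.24 ± 0.22 (adjusted p = 0.48). The call against euthyroid liver was lost with median scaling (adjusted p = 0.0674) and without euthyroid replicate 1 (adjusted p = 0.0629) or euthyroid replicate 2 (adjusted p = 0.083), and without siRNA replicate 3, the lowest array, the change was -0.54 and still called. Nr1d1 shares its locus with Thra, a thyroid hormone receptor gene transcribed from the opposite strand with an overlapping end, and it was not tested whether the probe lies in the overlap.

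Nr1d2 had levels of 10.60, 10.58 and 10.56 in euthyroid liver, 10.58, 11.16 and 10.87 with T3 and 10.91, 10.62 and 10.18 with siRNA. The euthyroid arrays lay close together, the T3 and siRNA arrays were spread more widely, and the groups overlapped. The changes of 0.29 ± 0.19, -0.30 ± 0.19 and -0.01 ± 0.19 did not pass (adjusted p = 0.317, 0.302 and 0.98). A dimmer Nr1d2 probe, detected on 8 arrays, had euthyroid levels of 5.52, 5.73 and 5.28 below T3 levels of 6.05, 6.89 and 5.85 and siRNA levels of 5.98, 6.46 and 6.26, with changes of 0.75 ± 0.26 and 0.72 ± 0.26 from euthyroid liver (adjusted p = 0.0695 and 0.0669 over probes) and -0.03 between T3 and siRNA. The euthyroid arrays of this probe thus did not overlap the others, unlike those of the brighter probe.

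Dbp, the output activator, known for a very large daily swing in liver, had levels of 13.55, 13.20 and 13.38 in euthyroid liver, 12.80, 13.24 and 12.68 with T3 and 13.32, 13.38 and 12.85 with siRNA. T3 replicates 1 and 3 and siRNA replicate 3 lay below all euthyroid arrays, and T3 replicate 2 lay among them. The changes were -0.47 ± 0.19 with T3 (95% interval -0.89 to -0.04, adjusted p = 0.112), 0.28 ± 0.19 for siRNA against T3 (adjusted p = 0.333) and -0.19 ± 0.19 for siRNA against euthyroid liver (adjusted p = 0.488). The first passed the threshold with array weights (-0.53, adjusted p = 0.0497) and under no other of the 19 alternatives.

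**Figure D2:**
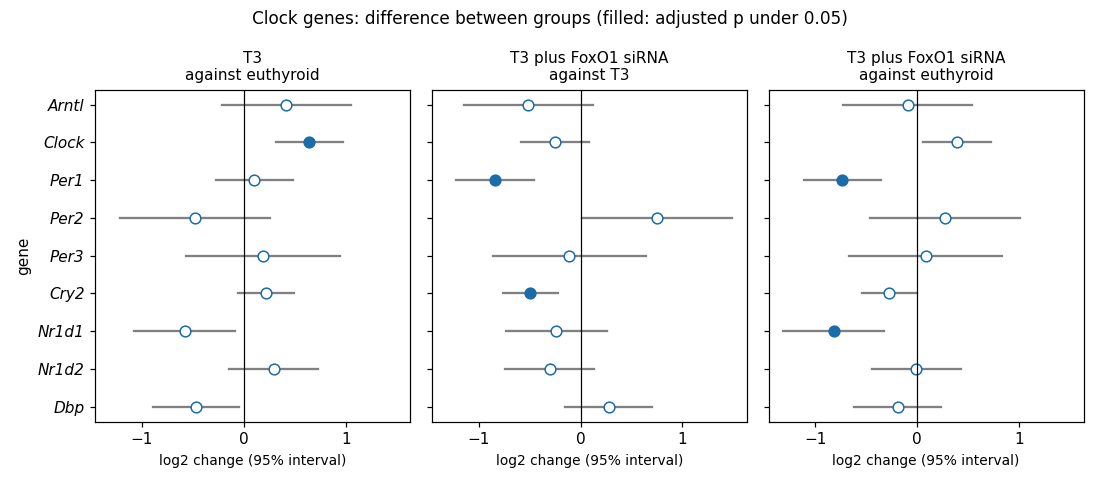
Log2 change (horizontal axis) of each tested clock gene in the 3 comparisons, with its 95% interval; filled points have an adjusted p under 0.05. Clock is filled at 0.64 with T3, Per1 and Cry2 at -0.84 and -0.49 for siRNA against T3, and Per1 and Nr1d1 at -0.73 and -0.82 for siRNA against euthyroid liver.

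Most clock genes varied more between replicate arrays than the median gene. The within-group SD had a median of 0.27 over the 9 clock genes and 0.18 over all genes, and 8 of the 9 lay above the latter. Per3 (0.49) and Per2 (0.48) were more variable than 97.3% and 97.1% of all genes, Arntl (0.41) than 93.3% and Nr1d1 (0.31) than 82.2%. Nr1d2 (0.27), Dbp (0.26), Per1 (0.23) and Clock (0.19) followed, and Cry2 (0.13) was more variable than 30.5%. The spreads were ranked without regard to level, and Arntl and Per3 were dim, detected on 7 and 8 arrays. Clock, Per1 and Cry2, 3 of the 4 genes called in any comparison, had the smallest spreads, and the intervals of the others are wider.

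T3 replicate 2 and siRNA replicate 3 had the largest median absolute deviations of the clock genes, and also the largest of all genes. Single clock genes deviated as widely on other arrays. Arntl deviated by 0.60 on euthyroid replicate 2, Arntl by -0.55 and Per2 by 0.51 on euthyroid replicate 3, and Per3 by -0.81 on T3 replicate 3. On T3 replicate 2, Per2 lay 0.74, Per3 0.67, Dbp 0.33, Nr1d2 0.28 and Cry2 0.17 above the T3 mean. Arntl, Clock, Nr1d1 and Per1 lay under it (deviations of -0.38, -0.22, -0.16 and -0.11). The median absolute deviation of the clock genes on that array was 0.28, and that of all genes 0.13. On siRNA replicate 3, Nr1d1 deviated by -0.56, Nr1d2 and Per3 by -0.39, Dbp by -0.34 and Per1 by 0.33, with a median absolute deviation of 0.33 for the clock genes and 0.12 for all genes. Since no hour of collection is given, the part of the hour in these deviations, and in the group differences, was not tested.

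**Figure D3:**
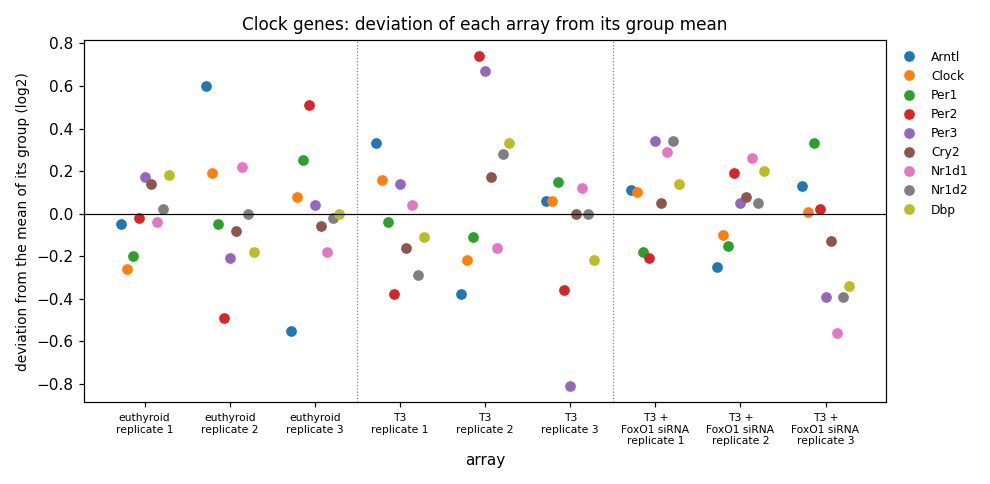
Deviation of each clock gene from the mean of its group (vertical axis, log2) on each of the 9 arrays; colours mark genes and dotted lines separate the groups. Per2 and Per3 lie at 0.74 and 0.67 on T3 replicate 2, Per3 at -0.81 on T3 replicate 3 and Nr1d1 at -0.56 on siRNA replicate 3.

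The other transcription factors of the loop were read next. Of 12 such genes, 10 have a named probe and 6 were tested, and 1 was higher with T3, 1 lower with siRNA than with T3 and 1 higher with siRNA than in euthyroid liver (medians -0.12, 0.01 and -0.11). Each count is 16.7% of the 6, below the 18.4%, 19.6% and 26.8% of all genes. Rora, the receptor that activates Arntl at the elements used by NR1D1, had levels of 9.32, 9.39 and 9.37 in euthyroid liver, 10.21, 10.04 and 10.17 with T3 and 9.49, 9.38 and 9.44 with siRNA. The T3 arrays lay above all others, and the euthyroid and siRNA arrays overlapped. Rora rose by 0.78 ± 0.09 with T3 (1.72-fold, adjusted p = 0.00177), was lower by 0.71 ± 0.09 with siRNA than with T3 (log2 change -0.71, adjusted p = 0.00147) and differed from euthyroid liver by 0.08 ± 0.09 (adjusted p = 0.578). Both of its calls held in every alternative tried.

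Timeless, which is related to the fly clock gene and acts in replication forks in mammals, had siRNA levels of 7.16, 7.72 and 8.71 above all other arrays (6.62 to 6.92). It rose by 1.13 ± 0.31 against euthyroid liver (adjusted p = 0.0274), a call lost with only those groups in the fit (adjusted p = 0.0524) and without euthyroid replicate 1, 2 or 3 or siRNA replicate 2 (adjusted p = 0.0552, 0.0782, 0.0744 and 0.0523). Against T3 the Timeless change of 0.99 ± 0.31 did not pass (adjusted p = 0.0539), although it passed under 7 of 19 alternatives. Bhlhe40, a repressor that competes for E-boxes, was at 12.67 ± 0.34 (SD) in euthyroid liver, 12.03 ± 0.37 with T3 and 12.06 ± 0.16 with siRNA. Its euthyroid arrays lay above all others, and the changes of -0.64 ± 0.22 and -0.61 ± 0.22 from euthyroid liver did not pass (adjusted p = 0.0676 and 0.0639). Under 4 and 8 of 19 alternatives they did pass. Ciart, a repressor of the ARNTL and CLOCK dimer, changed by -0.11, -0.42 and -0.54 and was not called. The D-box activators Tef (-0.18, -0.01 and -0.18) and Hlf (-0.13, 0.10 and -0.03) were not called either, and Hlf was not detected on the euthyroid arrays.

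Of 19 genes for proteins that modify or bind clock proteins, 15 were tested. With T3, 2 were higher (Gsk3b and Sirt1) and 2 lower (Btrc and Hdac3), 1 was lower with siRNA than with T3 (Ppargc1a), and 3 were lower with siRNA than in euthyroid liver (Btrc, Csnk2a1 and Ppargc1a). These are 26.7%, 6.67% and 20% of the 15, beside 18.4%, 19.6% and 26.8% of all genes. Btrc, an F-box protein that marks PER proteins for breakdown, had levels of 8.90, 8.86 and 8.79 in euthyroid liver, 7.96, 8.12 and 8.29 with T3 and 8.25, 8.24 and 8.03 with siRNA. The euthyroid arrays lay apart from all others. Btrc fell by 0.73 ± 0.11 with T3 (log2 change -0.73, adjusted p = 0.00487) and by 0.68 ± 0.11 with siRNA against euthyroid liver (log2 change -0.68, adjusted p = 0.00392), the second not called with median scaling (adjusted p = 0.0782); a second probe, detected on all 9 arrays, gave -0.33 with T3 and -0.20 with siRNA against euthyroid liver and was not called (adjusted p = 0.251 and 0.472). Hdac3, the deacetylase that NR1D1 recruits through a corepressor, fell by 0.39 ± 0.09 with T3 (log2 change -0.39, adjusted p = 0.0208), a call lost with median scaling (adjusted p = 0.12) and without euthyroid replicate 1 or 3 or T3 replicate 3 (adjusted p = 0.0776, 0.063 and 0.0557). Ppargc1a, a coactivator of the ROR receptors, changed by -0.77 ± 0.23 with siRNA against T3 (adjusted p = 0.0444, not called under 10 of the alternatives) and by -0.87 ± 0.23 against euthyroid liver (adjusted p = 0.0224). Csnk2a1, a casein kinase 2 subunit, changed by -0.50 ± 0.13 against euthyroid liver (adjusted p = 0.0188), and its 2 other tested probes gave -0.39 and -0.56 and were not called (adjusted p = 0.126 and 0.0693). Of these last calls, those against euthyroid liver were lost with median scaling (adjusted p = 0.0791 and 0.236) and without euthyroid replicate 1 or 3 or siRNA replicate 2 (Ppargc1a 0.0779, 0.0717 and 0.0646; Csnk2a1 0.071, 0.0629 and 0.0595), Ppargc1a also without siRNA replicate 3 (0.08) and Csnk2a1 without siRNA replicate 1 (0.0517).

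Of 24 liver transcripts known for a daily rhythm, 20 were tested. With T3, 2 were higher (Insig2 and Gys2) and 2 lower (Elovl3 and Alas1), which is 20% beside 18.4% of all genes. With siRNA against T3, 1 was higher (Tfrc) and 7 lower (Elovl3, Upp2, Gys2, Lpin1, Ces2a, Insig2 and Thrsp), which is 40% beside 19.6%. With siRNA against euthyroid liver, 2 were higher (Tfrc and Cdkn1a) and 3 lower (Alas1, Elovl3 and Lpin1), which is 25% beside 26.8%. The median log2 changes were 0.27, -0.43 and -0.15. Like the other lists, this one was chosen with earlier results of these data known, so its shares are descriptions and no test of the list. Insig2, an inhibitor of sterol-regulated transcription whose rhythm depends on NR1D1, had levels of 11.56 ± 0.23 (SD) in euthyroid liver, 12.75 ± 0.22 with T3 and 11.70 ± 0.22 with siRNA. It rose by 1.19 ± 0.17 with T3 (adjusted p = 0.00328) and was 1.05 ± 0.17 lower with siRNA than with T3 (log2 change -1.05, adjusted p = 0.00391), and 2 other probes gave 2.27 and 1.13, then -1.74 and -0.91. Gys2, the liver glycogen synthase, had levels of 8.27, 8.20 and 8.45, then 9.02, 9.02 and 9.16, then 8.30, 8.62 and 8.45. It rose by 0.76 ± 0.12 with T3 (adjusted p = 0.00441) and changed by -0.61 ± 0.12 with siRNA against T3 (adjusted p = 0.00866), not called with median scaling (-0.37, adjusted p = 0.163). For both genes the T3 arrays lay above all others and the euthyroid and siRNA arrays overlapped.

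Elovl3, a fatty acid elongase with a marked daily rhythm, had levels of 8.69, 9.42 and 8.88 in euthyroid liver, 7.86, 7.80 and 7.67 with T3 and 6.17, 6.84 and 5.64 with siRNA, so the 3 groups were separate. It fell by 1.22 ± 0.28 with T3 (log2 change -1.22, adjusted p = 0.0193; not called without euthyroid replicate 2 or T3 replicate 3, adjusted p = 0.0607 and 0.0551), by a further 1.56 ± 0.28 with siRNA (log2 change -1.56, adjusted p = 0.00658) and between euthyroid liver and siRNA its log2 change was -2.78 ± 0.28 (6.87-fold, adjusted p = 0.000595). Lpin1, a phosphatidate phosphatase and coactivator, had levels of 9.63, 10.02 and 9.76, then 10.48, 10.77 and 11.24, then 8.75, 8.81 and 7.57. Its siRNA arrays lay below all others. The change was -2.45 ± 0.32 against T3 (adjusted p = 0.00158), where a second Lpin1 probe gave -2.20 (adjusted p = 0.00119 over probes). Against euthyroid liver it was -1.43 ± 0.32 (adjusted p = 0.0122). The rise of T3 over the euthyroid level, 1.02 ± 0.32, did not pass (adjusted p = 0.0547). It passed under 8 of 19 alternatives, and the second Lpin1 probe rose by 1.11 (adjusted p = 0.021 over probes). Ces2a, a carboxylesterase, changed by -1.42 ± 0.24 (adjusted p = 0.00463, detected on 2 of 3 siRNA arrays) and Upp2, a uridine phosphorylase, by -1.16 ± 0.25 (adjusted p = 0.0122) between T3 and siRNA. Their siRNA levels of 5.19 to 5.96 and 10.97 to 11.53 lay below all T3 levels. With T3 against euthyroid liver this Upp2 probe changed by 0.48 ± 0.25 and did not pass (adjusted p = 0.195). The 3 other Upp2 probes rose by 1.02, 0.93 and 1.06 with T3 and passed (adjusted p = 0.0209, 0.046 and 0.0175 over probes).

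**Figure D4:**
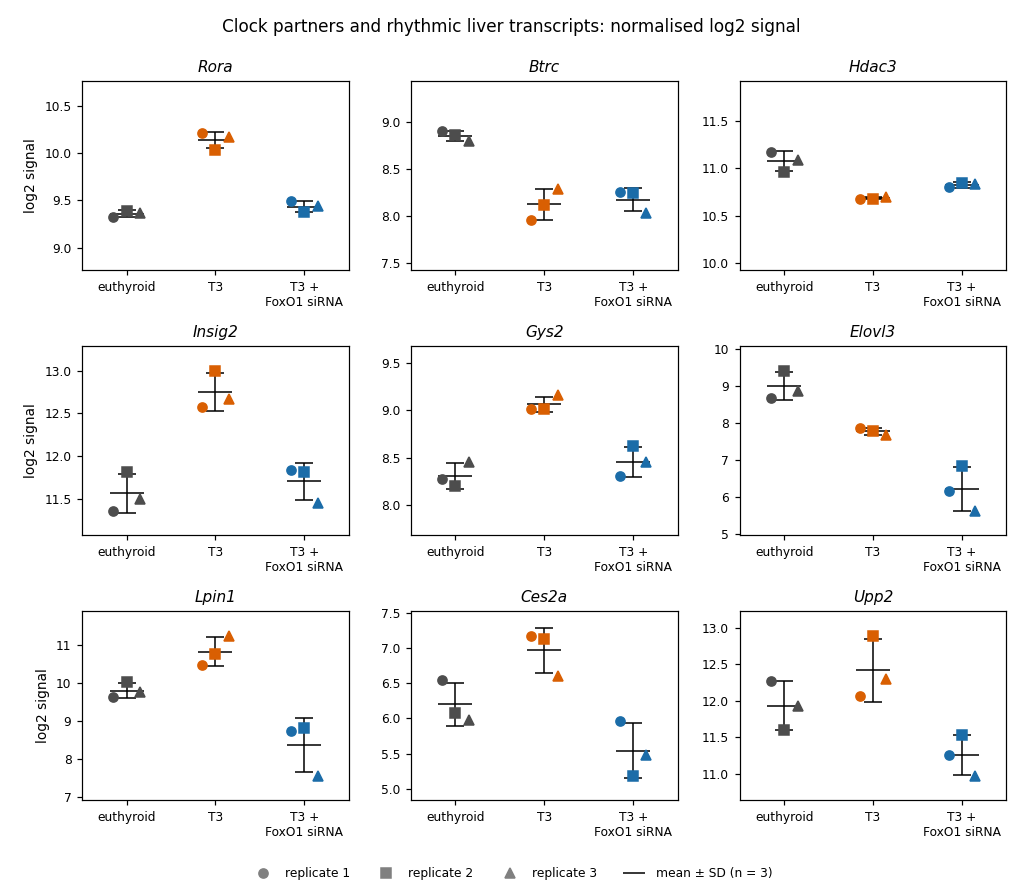
Normalised log2 signal (vertical axis) of 9 genes from the lists of clock partners and rhythmic liver transcripts, with 3 arrays per group as points shaped by replicate and the mean ± SD as bars; the vertical axes differ between genes. Rora, Insig2 and Gys2 are highest with T3, Btrc is highest in euthyroid liver, and the 3 groups of Elovl3 are separate.

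Glucocorticoid-responsive genes were read because glucocorticoids induce Per1. Of 10 listed, which include Per1 itself, 9 were tested. Fkbp5 was higher with T3, Per1 and Klf9 were lower with siRNA than with T3, and with siRNA against euthyroid liver Cdkn1a was higher and Per1 and Zbtb16 lower. These are 11.1%, 22.2% and 33.3% of the 9, beside the 18.4%, 19.6% and 26.8% of all genes. The median log2 changes of the 9, Per1 included, were 0.32, -0.47 and -0.15, and a link to the Per1 change was not tested. Fkbp5, a chaperone of the glucocorticoid receptor, had levels of 8.63, 8.86 and 8.76 in euthyroid liver, 9.26, 9.58 and 10.09 with T3 and 9.52, 9.04 and 9.07 with siRNA. It rose by 0.89 ± 0.21 with T3 (adjusted p = 0.0199; not called without euthyroid replicate 1 or 3, adjusted p = 0.0731 and 0.0546) and its siRNA level did not pass against T3 (-0.43 ± 0.21, adjusted p = 0.174). Zbtb16, a zinc finger repressor, was lower by 1.40 ± 0.31 with siRNA than in euthyroid liver (log2 change -1.40, adjusted p = 0.0106), whereas Cdkn1a, a cyclin-dependent kinase inhibitor, was higher by 1.47 ± 0.36 (adjusted p = 0.0163; not called without euthyroid replicate 3 or siRNA replicate 3, adjusted p = 0.0547 and 0.0558). Its 2 other tested probes gave 1.65 (adjusted p = 0.00973) and 0.59 (adjusted p = 0.239).

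Some markers of other cells and of the acute phase were called in the siRNA group as well. They stood beside Per1 and Cry2 in the comparison with T3, and beside Per1 and Nr1d1 in that with euthyroid liver. The part of the markers in those changes was not tested. The sums given below are of linear signals, so the brightest genes of a list weigh most in them. Of 13 acute phase genes tested, 6 were higher and 1 lower with siRNA than with T3, and their summed normalised signal was 208166 to 213799 in euthyroid, 205728 to 208514 in T3 and 251508 to 296177 in siRNA livers. Of 9 macrophage markers, 5 were higher and 0 lower (sums of 6402 to 6491, 7327 to 8232 and 11368 to 14919), and of 11 stellate cell and fibroblast markers 7 were higher and 2 lower (16258 to 18720, 13804 to 14516 and 15018 to 18161). Of 3 neutrophil and monocyte markers 0 were called by limma and 1 had an unadjusted p under 0.05 (469 to 654, 536 to 644 and 541 to 1269). Of 8 endothelial markers 0 were called by limma and 1 had an unadjusted p under 0.05 (10828 to 11535, 9948 to 10958 and 9469 to 10576). Of 9 hepatocyte markers 4 were lower and 0 higher, with sums of 188421 to 194039, 191743 to 196043 and 173826 to 185133, and all 9 were detected on every array. Calls were 53.8% of the acute phase genes, 55.6% of the macrophage, 81.8% of the stellate cell and fibroblast and 44.4% of the hepatocyte markers. These shares stand beside 19.6% of all genes. The marker lists were chosen with earlier results of these data known, so their shares, here and below, are descriptions only. Steap4 of the acute phase list, Cd5l of the macrophage list, and Itgam and Cxcr2 of the neutrophil list were not detected on any array. Leaving out T3 replicate 2 or siRNA replicate 2 or 3 reduced the 7 acute phase calls to 4, and leaving out siRNA replicate 3 reduced the 4 hepatocyte calls to 2. Leaving out siRNA replicate 2 raised the neutrophil and monocyte calls from 0 to 2, against T3 and against euthyroid liver, and leaving out T3 replicate 3 raised the endothelial calls against T3 from 0 to 1.

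Against euthyroid liver the siRNA group had 6 acute phase genes higher and 1 lower, 7 macrophage markers higher and 0 lower, 5 stellate cell and fibroblast markers higher and 2 lower, 0 endothelial markers higher and 1 lower, and 0 hepatocyte markers higher and 4 lower. Calls were thus 53.8%, 77.8%, 63.6%, 12.5% and 44.4% of the lists in that order, beside 26.8% of all genes. The summed stellate cell and fibroblast signals of the siRNA and euthyroid groups overlapped. Markers also moved with T3 alone, beside the rises of Clock and Rora, and their part in those rises was not tested. With T3, 0 of 11 stellate cell and fibroblast markers were higher and 5 lower, 1 of 9 macrophage markers was higher and 2 lower, 2 of 9 hepatocyte markers were higher and 2 lower, and 0 of 8 endothelial markers were higher and 1 lower. Here the called shares were 45.5%, 33.3%, 44.4% and 12.5% in that order, beside 18.4% of all genes. Of the acute phase genes 0 were called by limma with T3 and 1 had an unadjusted p under 0.05. Without euthyroid replicate 1 or 3 the stellate cell and fibroblast calls with T3 went from 5 to 3, and the macrophage calls went from 3 to 1 without any 1 of euthyroid replicates 1, 2 and 3 and T3 replicates 2 and 3.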

How the data were processed

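Signals of 9 Illumina bead arrays were analysed. The authors deposited linear probe intensities before normalization; per the file headers, every intensity is followed by its detection p-value. They also deposited quantile-normalized intensities of the same arrays, used as an alternative. The submitters' processing notes name Partek 6.6 without a step. Groups and replicate numbers come from the sample titles.

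In R 4.3.3 with limma 3.58.1 and statmod 1.5.0, background was corrected by the function nec with an offset of 16. Its 936 negative controls were deduced from detection p-values. The log2 values were then quantile-normalized. Of 45281 probes, 18581 passed the filter on detection (p under 0.05, 3 of 9 arrays or more). Of all probes 34885 had 1 symbol, 18 several and 10378 none. The probe with the highest mean level stood for its gene, which gave 10408 genes from 15754 named probes. The 9 arrays entered one lmFit and eBayes model of 3 group means; its two-sided p-values were adjusted by Benjamini and Hochberg's method across all 10408 genes. The procedure was tested on simulated data. Precision is limited by having 3 arrays per group.

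All 10 clock genes and every probe of theirs are reported; of the other lists, up to 6 loop factors, 4 protein regulators, 6 rhythmic transcripts and 3 glucocorticoid targets with the lowest adjusted p in any comparison are named. Gsk3b, Sirt1, Alas1, Tfrc, Thrsp and Klf9 were named after their values were seen. The members and lists were chosen with earlier results of these data known. Alternatives changed the background step, offset, normalization, filter, probe choice, array weights, groups fitted, replicate block and arrays included. Motifs were searched in RefSeq promoter windows of GRCm38.p6 as letters on both strands.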

Additional observations from a re-analysis of the deposited data

How the results depend on the processing

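Of 507 recomputed changes of single clock genes 468 kept their direction and their side of the threshold, 11 lost a call, 8 gained one and 20 changed sign, none of them while called; of 1191 such values of the named genes from the other lists, with Foxo1 and Dio1, 1081 kept both, 38 lost a call, 53 gained one and 19 changed sign. For T3 against euthyroid liver, where 1 clock gene was called, 2 were called without background correction, with the authors' normalized values, with array weights and with only the 2 groups in the fit, and 0 to 2 when single arrays were left out. For siRNA against T3, with 2 called, 1 was called with median scaling and 1 to 2 with single arrays left out. For siRNA against euthyroid liver, with 2 called, 0 were called with median scaling, 3 without background correction and with the authors' normalized values, where Clock was added, and 1 to 2 with single arrays left out. Same-numbered arrays did not deviate together (all-gene correlations of -0.06 to 0.03, 9 pairs), which cannot exclude pairing in single genes. With the replicate block the 3 comparisons called 1, 2 and 2 clock genes, as without it, and 1525, 1663 and 2376 of all genes.

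Over all genes, 1919 calls for T3 against euthyroid liver became 916 with median scaling and 895 to 2008 with single arrays left out; 2035 for siRNA against T3 became 1170 to 1760 with single arrays left out; 2785 for siRNA against euthyroid liver became 1778 with median scaling and 1696 to 2930 with single arrays left out. Of the rhythmic transcripts, 4 calls with T3 became 9 without background correction or with the authors' values, 7 with an offset of 50 or the mean of probes, and 2 without euthyroid replicate 2; 5 calls for siRNA against euthyroid liver became 2 without siRNA replicate 3 and 3 without euthyroid replicate 1, 2 or 3. Of the clock protein regulators, 4 calls with T3 became 1 with median scaling or without euthyroid replicate 1 or 3 or T3 replicate 3, and 2 with no filter, the replicate block or without euthyroid replicate 2 or T3 replicate 1; the 1 call for siRNA against T3 was lost under 10 alternatives; 3 calls for siRNA against euthyroid liver became 5 without background correction, 0 with median scaling and 1 without euthyroid replicate 1 or 3 or siRNA replicate 2. The single calls among loop factors became 2 under several alternatives and, for siRNA against euthyroid liver, 0 without euthyroid replicate 2 or 3 or siRNA replicate 2. For glucocorticoid targets, 1 call with T3 became 0 without euthyroid replicate 1 or 3 and 2 without T3 replicate 1 or 3, and 2 calls for siRNA against T3 became 1 with only those groups fitted and without T3 replicate 2 or 3. Of the markers, for siRNA against T3, 7 acute phase calls became 4 with the replicate block or only those groups fitted, 5 macrophage calls became 3 with detection on all 9 arrays, 4 hepatocyte calls became 2 with median scaling, and 0 endothelial calls became 1 under 7 alternatives; with T3, 3 macrophage calls became 1 with the replicate block or detection on all 9 arrays and 4 hepatocyte calls became 1 with median scaling; for siRNA against euthyroid liver, 4 hepatocyte calls became 2 with median scaling, 1 endothelial call became 0 to 2, and 0 neutrophil and monocyte calls became 1 to 2 under 3 alternatives.

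The changes of sign, none past the threshold, were these. For T3 against euthyroid liver, Per1 was at -0.0086 and Ciart at 0.0071 with the mean of probes, and Per3 at -0.015 and Hlf at 0.041 with array weights. With single arrays left out, Per3 ranged from -0.14 to 0.59, Ciart from -0.40 to 0.13, Hlf from -0.43 to 0.11 and Ppargc1a from -0.28 to 0.033. For siRNA against T3, median scaling put Per3 at 0.095, Nr1d1 at 0.032 and Tef at 0.083, the mean of probes put Per3 at 0.039, and array weights put Per3 at 0.16, Tef at 0.094 and Hlf at -0.0093. With single arrays left out, Per3 ranged from -0.51 to 0.22, Nr1d1 from -0.38 to 0.039, Bhlhe40 from -0.19 to 0.15, Tef from -0.12 to 0.088, Hlf from -0.14 to 0.39 and Btrc from -0.030 to 0.14. For siRNA against euthyroid liver, median scaling put Arntl at 0.018, Nr1d2 at 0.055 and Hlf at 0.0087, the mean of probes put Nr1d2 at 0.36, and array weights put Nr1d2 at 0.028 and Hlf at 0.032. With single arrays left out, Arntl ranged from -0.37 to 0.21, Per3 from -0.091 to 0.28, Nr1d2 from -0.18 to 0.18 and Hlf from -0.11 to 0.091. The cause of these shifts was not tested. The dim probes of Arntl, Per3 and Hlf, not detected on every array, limit what can be said of those genes.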

Other observations

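Over the 9 arrays, the genes outside the lists whose levels ran most alike to Arntl by Pearson's r were Ciao1 (0.967), Coq6 (0.925), Olfr1113 (0.886), Zscan21 (0.882) and Leap2 (0.878), where the median r of all genes with Arntl was -0.03. Those most alike to Dbp were Dennd6a (0.933), Ift52 (0.913), Cd3eap (0.911), Tbc1d10a (0.909) and Pwwp2a (0.908), with a median r of 0.08 for all genes. These are descriptions picked from 10408 genes, and all values share the same arrays and normalisation. The Arntl probe was dim and detected on 7 of the 9 arrays, which limits what its r values can mean.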
